A study of Equus caballus with 68 samples.

Results

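The genes described here are 4 regulators and 5 target genes of the antioxidant response that is controlled by the transcription factor NRF2, measured by RNA sequencing in equine bone marrow mononuclear cells (BMNC). Members were taken by gene symbol from a fixed list of 10 genes. Of these, 9 had a row among the 30371 genes of the expression table, and all 9 were among the 14570 genes that passed a filter on low values. The regulators were NFE2L2, which encodes NRF2, NFE2L1, KEAP1 and MAFG. The target genes were NQO1, GCLM, GCLC, SRXN1 and SLC7A11, while TXNRD1 was not analysed here.

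The cells came from 8 skeletally mature Thoroughbred horses, 2 females and 6 castrated males, aged 3 to 9 years with a median of 5 years. BMNC were isolated from sternal marrow by density gradient, and were sequenced either uncultured (0 h, n = 8) or after culture in cell-free synovial fluid of the same horse, each horse kept apart and 1 well used per library. Normal synovial fluid (SF) was drawn from healthy middle carpal joints, and inflamed synovial fluid (ISF) from radiocarpal joints of the same animals injected with lipopolysaccharide, so that all cultures were autologous and no culture lacked synovial fluid. Each fluid was represented by 7 horses at 48 h, 8 at 96 h, 8 at 6 d and 7 at 10 d, with 1 library per horse, fluid and time, and 68 libraries in all. The inflamed fluid thus stands for acute, induced synovitis, and the 2 fluids of a horse came from different joints.

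NRF2 is made continuously and is normally held by KEAP1, a cysteine-rich adaptor that passes it to a ubiquitin ligase for degradation. Oxidants and electrophiles modify KEAP1, NRF2 escapes, pairs with a small MAF protein such as MAFG and binds antioxidant response elements in the promoters of its targets. Much of this control acts on the protein, so transcript levels of NFE2L2 and KEAP1 need not follow NRF2 activity. In macrophages the pathway is known for supplying glutathione and for limiting oxidative damage during inflammation. The comparison of ISF with SF addresses how these genes responded to an inflamed joint fluid. The comparison of time points addresses how they moved from uncultured marrow cells through the days of culture.

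Expression is given as GeTMM, in which reads are divided by gene length and by a scaled library size, so that levels can be set side by side between genes as well as between libraries. Depth lay between 15.7 M and 36 M gene-assigned reads (median 22.3 M), and 1 read on a gene of 1 kilobase was worth 0.0337 to 0.0979 GeTMM. Differences are given on the log2(GeTMM + 1) scale with their SE, and a gene was called at a false discovery rate (FDR) under 0.05 by limma over all genes tested. The SF 6 d library of Moon stood apart, with a limma library weight of 0.0304 against 0.517 to 1.32 in the 10 libraries named next for stromal markers, and results that turn on it are also given without it. Over genes that differed most between horses, 65 of 68 libraries resembled the horse they are labelled with. The exceptions were the ISF 96 h libraries of Dealings and Dreamer, each closest to the other, and the ISF 10 d library of Catnip, closest to Flash. Labels were kept, so counts of horses at 96 h and 10 d pair these libraries as labelled. A mean of stromal markers over 2 was found in 10 libraries, of which 4 were SF 10 d libraries.

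Macrophage markers, as the mean of 6 genes on the log2 scale, rose from 4.05 ± 0.30 (SD, n = 8) at 0 h to 10.2 ± 0.30 in ISF and 9.95 ± 0.21 in SF at 10 d (n = 7 each). Neutrophil precursor markers stood at 10.2 ± 0.36 in the uncultured cells, the highest of the marker lists there. They were at 1.91 ± 1.06 in ISF and 3.98 ± 2.18 in SF at 10 d. In bulk RNA, a smaller number of cells of a type and less RNA per cell cannot be told apart, and this holds for every comparison given here.

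Before culture the 9 genes spanned a wide range. MAFG was at 163 ± 24.9 GeTMM (SD, n = 8), NFE2L2 at 117 ± 20.2, GCLM at 103 ± 25.4, and KEAP1 at 58.9 ± 5.7. NFE2L1 was at 27.1 ± 1.6, GCLC at 22.3 ± 9.3, NQO1 at 13.7 ± 3.1, SRXN1 at 9.12 ± 3.92 and SLC7A11 at 0.684 ± 0.482. MAFG and NFE2L2 overlapped in their ranges, as did NFE2L2 and GCLM, NFE2L1 and GCLC, GCLC and NQO1, and NQO1 and SRXN1. SLC7A11 was the lowest in every group and rested on 3 to 344 reads per library, so counting error is largest for this gene. After 10 d in ISF the order had changed, with NFE2L1 first at 211 ± 75.2 (n = 7), followed by SRXN1 at 158 ± 49.3 and NFE2L2 at 152 ± 26.3, 3 genes whose ranges overlapped.

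**Figure D1:**
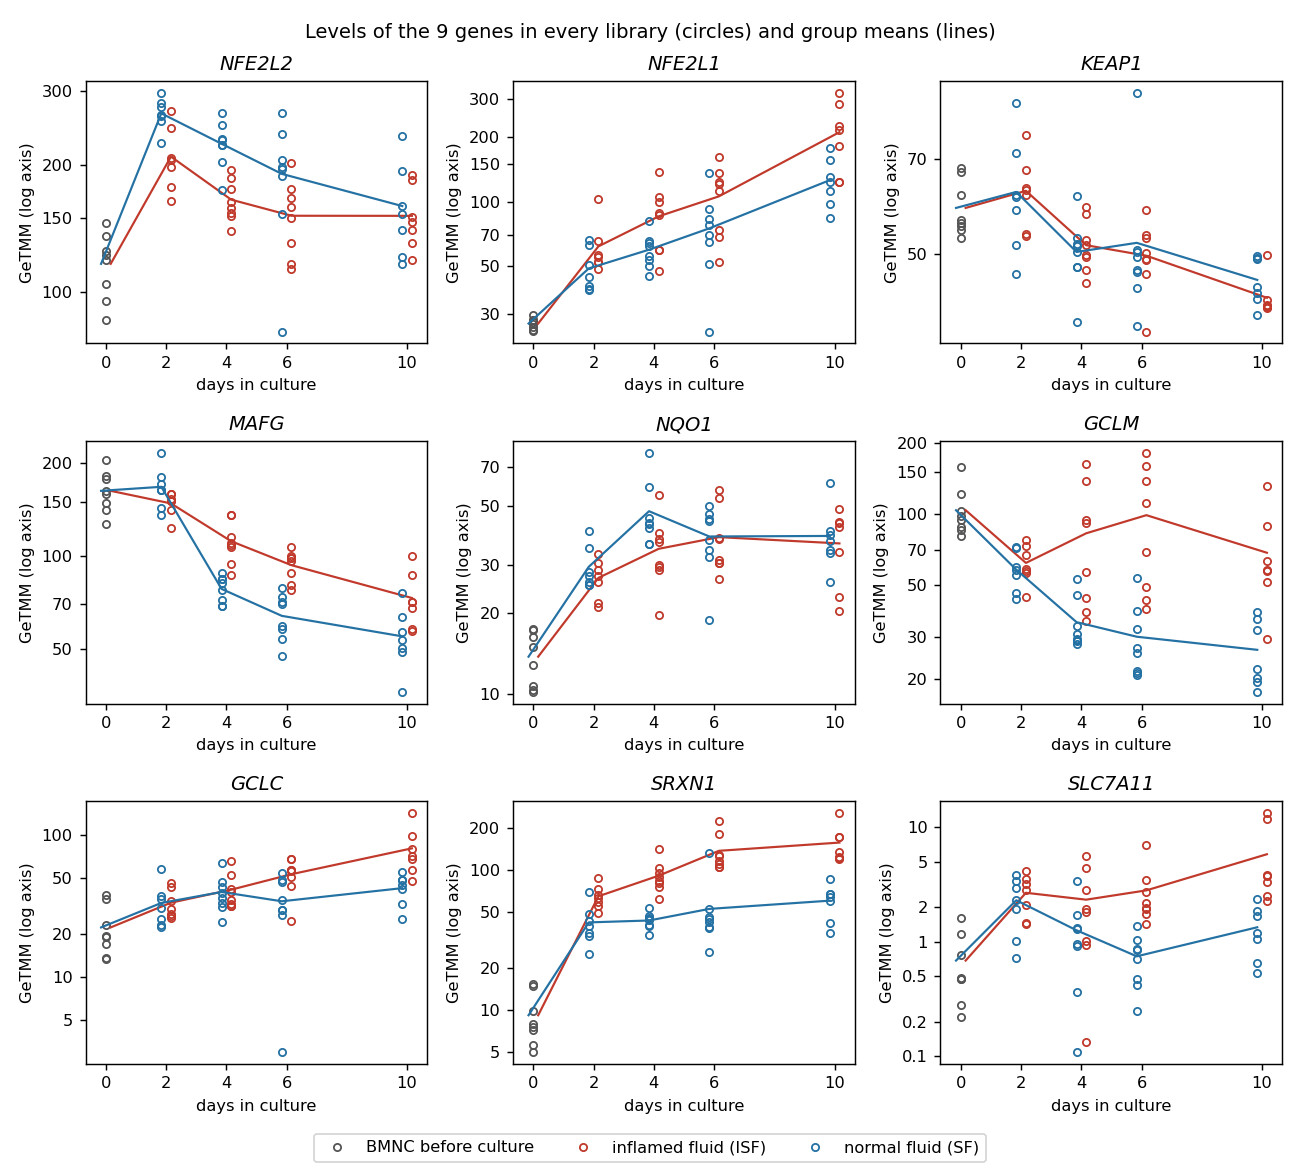
GeTMM (log axis) of the 9 genes against days in culture, where each circle is a library and lines join group means. SRXN1 and NFE2L1 climbed from 0 h in both fluids, MAFG fell in both, and GCLM fell in SF while in ISF it spread over a wide range at 96 h and 6 d.

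Over the whole culture, 9 of 9 members differed between 0 h and 10 d in ISF, where 74.5% of all genes tested were called, and 8 of 9 in SF, where the share was 69.6%. The comparisons of both fluids share the 0 h libraries. SRXN1, NFE2L1, GCLC, NQO1 and NFE2L2 rose in both fluids, and GCLM, MAFG and KEAP1 fell in both. SLC7A11 rose in ISF, while in SF its difference was 0.47 ± 0.29 with an FDR of 0.15. In SF SLC7A11 was higher at 10 d in 7 of 7 horses, by 0.06 to 1.14, and was called with only the groups compared (FDR = 0.0434). Since most genes in the table moved, the directions and sizes carry more than the counts do.

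Among the regulators, NFE2L2 (ENSECAG00000005675) had its highest mean in either fluid at 48 h, the first cultured time. In the uncultured cells it ranged from 85.9 to 146 GeTMM with a median of 121. At 48 h it ranged from 164 to 269 in ISF with a median of 205, and from 226 to 296 in SF with a median of 263. All 14 cultured libraries of that time lay above all 8 uncultured ones. The difference from 0 h was 0.84 ± 0.15 in ISF (FDR = 3.03e-06) and 1.19 ± 0.15 in SF (FDR = 8.67e-10). No step between consecutive times after 48 h was called in the main fit. From 48 h to 96 h the step was -0.33 ± 0.15 in ISF (FDR = 0.124) and -0.24 ± 0.15 in SF (FDR = 0.243). By 10 d, 4 of 7 libraries in either fluid still exceeded every uncultured library, and the difference from 0 h was 0.38 in ISF (FDR = 0.0208) and 0.43 in SF (FDR = 0.00901). The call in ISF was lost without Catnip (FDR = 0.0597) or without Dreamer (FDR = 0.0757), also without the ISF 10 d library of Catnip alone (FDR = 0.0544), and that in SF without Dealings (FDR = 0.0746) or without libraries with stromal markers (FDR = 0.184).

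NFE2L1 (ENSECAG00000007777), a factor related to NRF2 that is best known for driving proteasome genes, moved otherwise and was still climbing at the end of culture. It was narrow at 0 h, from 25 to 29.6 GeTMM with a median of 27.2. Its 10 d values ran from 124 to 321 in ISF with a median of 217, and from 84.1 to 177 in SF with a median of 124. No cultured library of 10 d overlapped with the uncultured ones, and the group mean was 7.79 times the 0 h mean in ISF and 4.65 times in SF. The rise from 6 d to 10 d was 0.99 ± 0.23 in ISF (FDR = 0.0018), where the groups overlapped. It was found in 7 of 7 horses, from 0.14 to 2.08 within a horse. In SF it was 0.83 ± 0.23 (FDR = 0.0254), and 0.63 (FDR = 0.1) without the SF 6 d library of Moon, in which NFE2L1 was at 24.9 against 51.3 to 136 in the others. This call in SF was also lost without Lurie (FDR = 0.0657), without Ollie (FDR = 0.0643) and without libraries with stromal markers (FDR = 0.171).

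KEAP1 (ENSECAG00000020533) was the steadiest of the 9 genes, with group means from 42.9 to 62.5 GeTMM. At 0 h it ranged from 52.9 to 67.7 with a median of 56.1, and at 10 d from 41.3 to 49.9 in ISF with a median of 41.6 and from 40.4 to 49.7 in SF with a median of 44.6. All 14 libraries of 10 d lay below all 8 of 0 h. The fall was -0.45 ± 0.10 in ISF (FDR = 0.000141) and -0.36 ± 0.10 in SF (FDR = 0.00213), the latter not called without libraries with stromal markers (FDR = 0.0674).

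MAFG (ENSECAG00000017470), one of the small MAF proteins that can pair with NRF2, fell further. From 127 to 205 GeTMM at 0 h, with a median of 161, it came to 57.2 to 100.1 in ISF with a median of 71, and to 36.5 to 75.9 in SF with a median of 53.5 at 10 d. None of the 10 d libraries reached the lowest uncultured one. The difference from 0 h was -1.15 ± 0.12 in ISF (FDR = 1.70e-13) and -1.56 ± 0.12 in SF (FDR = 1.65e-18). In SF the largest step of this fall came between 48 h and 96 h, at -1.08 ± 0.12 (FDR = 1.23e-10), while in ISF the same interval gave -0.41 ± 0.12 (FDR = 0.00755), not called without Ollie (FDR = 0.0548).

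The target genes did not share a time course. SRXN1 (ENSECAG00000028292), sulfiredoxin, which restores over-oxidised peroxiredoxins, showed the steepest rise of the 9 genes. At 0 h it ranged from 4.99 to 15.3 GeTMM with a median of 7.72. At 48 h it ranged from 49.1 to 88 in ISF with a median of 63.9, and from 25.3 to 70.3 in SF with a median of 39.7. All cultured libraries lay above all uncultured ones, and the difference from 0 h was 2.78 ± 0.22 in ISF (FDR = 4.43e-17) and 2.12 ± 0.22 in SF (FDR = 1.68e-12). By 10 d the group mean was 17.4 times the 0 h mean in ISF and 6.65 times in SF.

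NQO1 (ENSECAG00000020378), a quinone reductase often used as a readout of NRF2 activity, also rose in every culture. From 10.2 to 17.4 GeTMM at 0 h with a median of 13.9, it reached 21.1 to 33 in ISF with a median of 27.4 and 25.3 to 40.3 in SF with a median of 27.5 at 48 h. Neither fluid overlapped with 0 h at that time. The difference was 0.94 ± 0.19 in ISF (FDR = 2.94e-05) and 1.07 ± 0.19 in SF (FDR = 3.86e-06), and at 10 d it was 1.30 and 1.42. SLC7A11 (ENSECAG00000022696), the cystine importer that feeds glutathione synthesis, rose by 1.12 ± 0.29 in ISF (FDR = 0.000993) and by 0.93 ± 0.29 in SF (FDR = 0.00725) within the first 48 h. Its medians were 0.474 GeTMM at 0 h, 2.83 in ISF and 2.30 in SF, and 5 of 7 libraries in either fluid exceeded every uncultured library.

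GCLC (ENSECAG00000017346) and GCLM (ENSECAG00000021993) encode the catalytic and the modifier subunit of glutamate-cysteine ligase, the enzyme that limits glutathione synthesis. Between 0 h and 10 d they moved in opposite directions. In between, the mean of GCLM in ISF was 61.9 GeTMM at 48 h, 82.6 at 96 h and 98.6 at 6 d, beside 103 at 0 h. Its steps in ISF from 48 h to 96 h and from 96 h to 6 d were not called. GCLC ranged from 13.3 to 37.6 GeTMM at 0 h with a median of 19.2, and at 10 d from 47.6 to 142 in ISF with a median of 70.7 and from 25.7 to 54.6 in SF with a median of 44.3. GCLM ranged from 80.4 to 158 at 0 h with a median of 96, and at 10 d from 29.3 to 131 in ISF with a median of 57.5 and from 17.6 to 38.2 in SF with a median of 21.9. The 0 h and 10 d libraries overlapped for GCLC in SF and for GCLM in ISF, and did not for the other pairs. GCLC differed from 0 h by 1.81 ± 0.30 in ISF (FDR = 1.86e-07) and 0.95 ± 0.30 in SF (FDR = 0.00398), and GCLM by -0.69 ± 0.28 in ISF (FDR = 0.0239) and -1.95 ± 0.28 in SF (FDR = 1.01e-08). Without Lurie the fall of GCLM in ISF had an FDR of 0.0544, and without Ollie of 0.13.

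The ratio of GCLC to GCLM within a library, both in GeTMM, put this on a single scale. It was 0.136 to 0.378 at 0 h with a median of 0.202, and no uncultured library had more GCLC than GCLM. In SF the median was 0.556 at 48 h, 1.15 at 96 h, 1.22 at 6 d and 1.70 at 10 d, and 6 of 7 libraries were above 1 at 10 d. In ISF the median was 0.597, 0.634, 0.675 and 1.23, and 1 of 8 libraries was above 1 at 96 h against 5 of 8 in SF. The lowest cultured value, 0.143, was that of the SF 6 d library of Moon, where GCLC was at 2.97 GeTMM on 58 reads. The ratio was computed after the values were seen and was not tested.

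**Figure D2:**
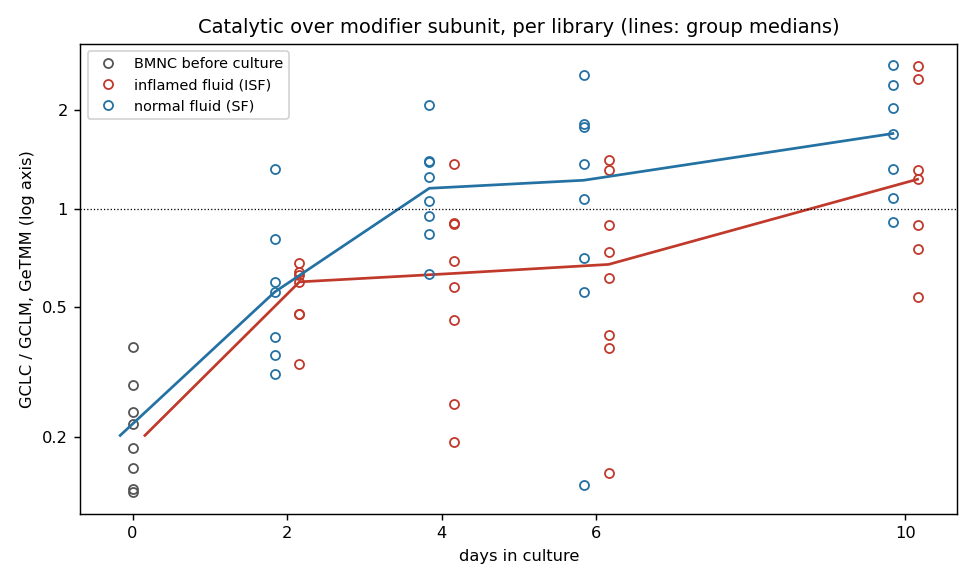
Ratio of GCLC to GCLM in GeTMM (log axis) against days in culture, with 1 circle per library and lines through group medians. All uncultured libraries sit at or below 0.378, SF medians passed 1 by 96 h, and ISF medians passed 1 only at 10 d.

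GCLC, at 0.62 ± 0.30 from 0 h to 48 h in ISF (FDR = 0.0734) and 0.58 ± 0.30 in SF (FDR = 0.107), was called there only in some fits, such as that without the SF 6 d library of Moon (FDR = 0.0128 and 0.0232). By interval, 6 of 9 members were called from 0 h to 48 h in ISF, where 52.7% of all genes were called, and the same number in SF, where 45.4% were called. In both fluids the 6 were NFE2L2, NFE2L1, NQO1, SRXN1 and SLC7A11, which rose, and GCLM, which fell. GCLM fell by 0.72 ± 0.28 on the log2 scale in ISF (FDR = 0.0259, and 0.0572 without Lurie or 0.0701 without Ollie) and by 0.82 ± 0.28 in SF (FDR = 0.0137). From 48 h to 96 h, 1 member was called in ISF (MAFG), against 19% of all genes. With horse as a block a second was called there, KEAP1 at -0.29 (FDR = 0.0297). In SF 4 of 9 were called against 27.3% of all genes, MAFG, GCLM at -0.74 ± 0.28 (FDR = 0.0416), KEAP1 at -0.29 ± 0.10 (FDR = 0.0345) and NQO1 at 0.64 ± 0.19 (FDR = 0.00749), the only one of the 4 that rose. The calls of KEAP1 and GCLM in this interval did not hold for every choice of horses. Leaving out any of 5 horses in turn, not the same 5 for both genes, raised the FDR of KEAP1 to between 0.0623 and 0.194 and that of GCLM to between 0.0613 and 0.143.

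No member was called by limma from 96 h to 6 d in ISF or in SF, intervals with 6.38% and 2.05% of all genes called. At an unadjusted p under 0.05 there were 2 members in each fluid, and limma voom on the recovered reads called 0 in both. From 6 d to 10 d, 2 of 9 were called in ISF against 10.5% of all genes, NFE2L1 and MAFG at -0.37 ± 0.12 (FDR = 0.0311). The FDR of MAFG rose to between 0.057 and 0.182 when Dealings, Dreamer, Flash, Lurie or Ollie was left out. In SF it was NFE2L1 alone, 1 of 9 against 4.78% of all genes.

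Between the fluids, 2 target genes were called at 96 h and 4 at 6 d and at 10 d, all higher in ISF, and NQO1 at no time. At 48 h no member was called by limma, where 1.68% of all genes were called and 0.872% were called higher in ISF. At an unadjusted p under 0.05 there were 2 members, SRXN1 at 0.65 ± 0.23 and NFE2L2 at -0.35 ± 0.15, and limma voom called 0. The SRXN1 difference had an FDR of 0.127, and 0.0426 in a fit without the SF 6 d library of Moon, which changes only the shared estimate of the spread. At 96 h 4 of 9 members were called, against 10.5% of all genes, and 3 of them were higher in ISF, against 6.16%. At 6 d 5 of 9 were called against 30.2% of all genes, all of them higher in ISF, against 16.7%. Without the SF 6 d library of Moon, and likewise with library weights, the calls at 6 d were 4 higher and 1 lower, as GCLC was lost and NFE2L2 was called lower. At 10 d 6 of 9 were called against 20.8%, again all higher in ISF, against 9.95%. The shares over all genes moved with the libraries too. Without the SF 6 d library of Moon they were 5% at 48 h, 16.7% at 96 h, 36.2% at 6 d and 28.3% at 10 d, and without the horse Dreamer 0.515%, 6.05%, 24.6% and 15.1%.

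The median difference of the 5 target genes was 0.10 at 48 h, 0.47 at 96 h, 1.05 at 6 d and 1.27 at 10 d, beside medians over all genes between -0.02 and 0. For the 4 regulators the medians were -0.07, 0.25, 0.25 and 0.18.

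**Figure D3:**
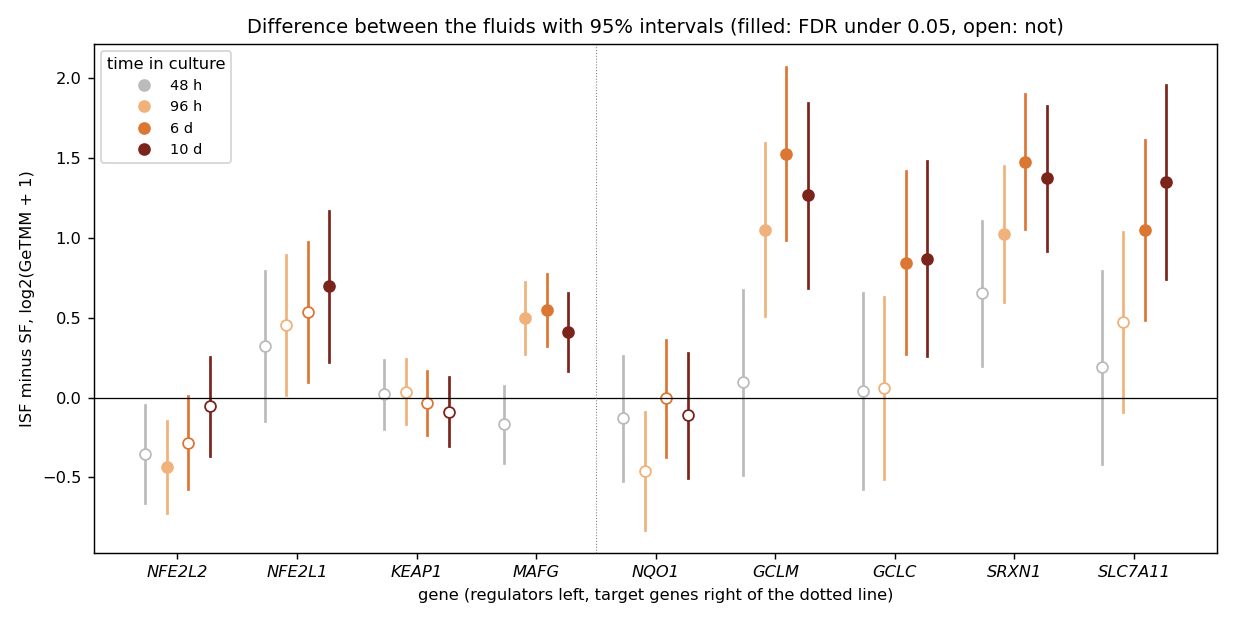
Difference of ISF from SF on the log2(GeTMM + 1) scale for the 9 genes at 4 times, with 95% confidence intervals from limma (filled circles: FDR under 0.05). GCLM, SRXN1 and SLC7A11 reached differences of 1.05 to 1.53 at 6 d, GCLC one of 0.85 that was 0.44 without the SF 6 d library of Moon, while KEAP1 and NQO1 stayed near 0 there.

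SRXN1 did not overlap between the fluids at 96 h and at 10 d. At 96 h it ranged from 62 to 141 GeTMM in ISF with a median of 86.9, and from 34.4 to 53.3 in SF with a median of 44.4. Every ISF library lay above every SF library, and the difference was 1.02 ± 0.21 (FDR = 0.000515). At 6 d ISF ranged from 106 to 226 with a median of 122, and SF from 26 to 133 with a median of 43.7. The groups overlapped through the SF 6 d library of Moon alone, at 133, as the other 7 SF libraries ended at 52.8. The difference was 1.48 ± 0.21 (FDR = 1.64e-07), with 7 of 8 horses higher in ISF. At 10 d ISF ranged from 120.3 to 258 with a median of 136 and SF from 35.3 to 86.4 with a median of 64.6, again without overlap, and the difference was 1.37 ± 0.23 (FDR = 6.04e-06).

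GCLM was higher in ISF in 8 of 8 horses at 96 h and at 6 d, and in 6 of 7 at 10 d, where Ollie went the other way. At 6 d it ranged from 39.5 to 181 GeTMM in ISF with a median of 89.9, and from 20.8 to 53.6 in SF with a median of 26.3, and the difference was 1.53 ± 0.27 (FDR = 1.15e-05). The groups overlapped in the lower part of the ISF range. At 96 h the difference was 1.05 ± 0.27 (FDR = 0.00608) and at 10 d 1.27 ± 0.29 (FDR = 0.000848). The ISF libraries were spread widely by horse. At 96 h Catnip, Dealings, Dreamer and Flash were at 91.3 to 163 and Lurie, Moon, Ollie and RimRun at 35.2 to 56.7, and at 6 d the same horses were at 111 to 181 and at 39.5 to 69.1. In SF at 96 h the horses were between 28.1 and 52.9, with Catnip and Flash again at the top and Dealings and Dreamer among the rest.

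SLC7A11 ranged from 1.44 to 6.96 GeTMM in ISF at 6 d with a median of 2.07, and from 0.246 to 1.37 in SF with a median of 0.781. The groups did not overlap. The difference was 1.05 ± 0.28 (FDR = 0.00318), and 1.74 with a pseudocount of 0.1 in place of 1, which compresses low genes less. At 10 d it ranged from 2.28 to 13.3 in ISF with a median of 3.78 and from 0.531 to 2.36 in SF with a median of 1.19. All 7 horses were higher in ISF by a difference of 1.35 ± 0.30 (FDR = 0.000673), with RimRun at 13.3 and Dreamer at 11.7 far above the other 5 ISF libraries, which ended at 3.81.

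GCLC differed later. At 96 h the difference was 0.06 with a 95% interval of -0.51 to 0.63. At 10 d all 7 horses were higher in ISF, the groups overlapped only slightly, and the difference was 0.87 ± 0.31 (FDR = 0.0344). The call was lost without Dreamer (FDR = 0.0852), Lurie (0.117), Ollie (0.084) or RimRun (0.133). At 6 d it ranged from 24.8 to 67.8 GeTMM in ISF with a median of 56 and from 2.97 to 53.9 in SF with a median of 32.3. The 6 d difference of 0.85 ± 0.29 (FDR = 0.0191) rested on the SF 6 d library of Moon, and was 0.44 (FDR = 0.114) without it. It was also not called without Flash (FDR = 0.0624).

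NQO1 did not follow the other target genes. At 6 d it ranged from 26.8 to 57.3 GeTMM in ISF with a median of 34.6 and from 18.8 to 50 in SF with a median of 40.6. The groups overlapped over most of their ranges, with 2 ISF libraries above all of SF and 3 of 8 horses higher in ISF. The difference was -0.004 with a 95% interval of -0.37 to 0.36, and -0.11 at 10 d with an interval of -0.50 to 0.28. At 96 h it was -0.46 ± 0.18, lower in ISF in 7 of 8 horses with Dreamer opposite, and had an FDR of 0.0978. It was called there without the ISF 96 h libraries of Dealings and Dreamer, at -0.62 (FDR = 0.041).

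Among the regulators, MAFG was higher in ISF in 8 of 8 horses at 96 h and at 6 d and in 7 of 7 at 10 d. At 96 h it ranged from 87.1 to 136 GeTMM in ISF with a median of 109 and from 69.1 to 88 in SF with a median of 79.9, so that 7 of 8 ISF libraries lay above all of SF. The difference was 0.50 ± 0.11 (FDR = 0.00162), and at 6 d 0.55 ± 0.11 (FDR = 0.000131). At 10 d it was 0.41 ± 0.12 (FDR = 0.0101), and 0.32 (FDR = 0.0738) without Dreamer.

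NFE2L2 went the other way. It was lower in ISF in 7 of 7 horses at 48 h, in 8 of 8 at 96 h and in 7 of 8 at 6 d. At 96 h it ranged from 140 to 195 GeTMM in ISF with a median of 161 and from 174 to 266 in SF with a median of 226, and 5 of 8 ISF libraries lay below all of SF. The difference at 96 h was -0.44 ± 0.14 (FDR = 0.0403). This call was lost without Dealings, Dreamer, Flash, Lurie, Ollie or RimRun in turn, with FDR values from 0.0645 to 0.145, without the ISF 96 h libraries of Dealings and Dreamer (FDR = 0.066) and without the filter on low values (FDR = 0.0626). At 6 d it was -0.28 ± 0.14 (FDR = 0.137), and -0.45 (FDR = 0.00373) without the SF 6 d library of Moon, in which NFE2L2 was at 80.8 against 153 to 266 in the other 7. At 10 d the groups overlapped throughout, at -0.06 with a 95% interval of -0.36 to 0.25.

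NFE2L1 was higher in ISF at 10 d by 0.70 ± 0.24 (FDR = 0.0273), in 6 of 7 horses, with Moon opposite. The call was lost without Catnip (FDR = 0.0689), Dealings (0.0538), Dreamer (0.0703), Lurie (0.071) or Ollie (0.148). At 6 d its difference of 0.54 ± 0.22 had an FDR of 0.0572, and an FDR of 0.0182 with horse as a block. KEAP1 was not called at any time, with differences from -0.09 to 0.04. At 6 d the 95% interval for KEAP1 was -0.24 to 0.17, a narrower range than for any target gene.

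Markers of other cells moved with the fluid at the same times. At 6 d, 5 of 6 neutrophil precursor markers were called lower in ISF, and their mean level ranged from 0.499 to 7.06 in ISF and from 3.58 to 8.90 in SF. All 5 T cell markers and all 4 B cell markers were lower at 6 d and at 10 d, the T cell mean at 10 d ranging from 0.849 to 1.89 in ISF and from 2.48 to 5.22 in SF. Macrophage markers ranged from 9.76 to 10.6 in ISF and from 9.58 to 10.3 in SF at 6 d, with MSR1 called higher, GPNMB lower and none at 0. All 4 cell cycle genes were higher in ISF at 6 d and 3 of them were called, the mean ranging from 3.88 to 5.24 in ISF and from 2.57 to 4.90 in SF. The B cell mean at 10 d ranged from 0.398 to 1.54 in ISF and from 1.16 to 4.53 in SF. The part of these cells in the differences was not tested.

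At 10 d all 5 stromal markers were lower in ISF, with a mean level from 0.0347 to 3.38 in ISF and from 0.104 to 9.39 in SF. Without the libraries with a stromal mean over 2, which left 3 SF libraries at 10 d, 2 members were called in place of 6, while the share over all genes went from 20.8% to 10.1%. SRXN1 kept a difference of 1.32 (FDR = 0.00297) and SLC7A11 of 1.26 (FDR = 0.0435). GCLM had 0.80 (FDR = 0.2), GCLC 0.91 (FDR = 0.171), NFE2L1 0.80 (FDR = 0.106) and MAFG 0.22 (FDR = 0.436).

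Whether the fluids came further apart with time was tested with interaction terms. From 48 h to 6 d the difference grew for 2 of 9 members, against 5.38% of all genes called, by 1.43 ± 0.40 for GCLM (FDR = 0.0201) and by 0.72 ± 0.17 for MAFG (FDR = 0.00464). The GCLM call was lost without Dealings (FDR = 0.0707), Dreamer (0.0739) or Lurie (0.084). For SRXN1 the growth of 0.83 ± 0.31 had an FDR of 0.109, and was 1.04 (FDR = 0.0143) without the SF 6 d library of Moon. From 48 h to 10 d it grew for MAFG, by 0.58 ± 0.17 (FDR = 0.0451), 1 of 9 against 2.99% of all genes. With horse as a block GCLM was called in this term too, at 1.17 (FDR = 0.0252). The MAFG call was lost when any of 6 horses was left out (FDR from 0.0638 to 0.172). From 6 d to 10 d limma called none of the members, against 0.226% of all genes, with 0 members at an unadjusted p under 0.05 and 0 by limma voom.

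The horses differed from each other. The share of the variance within groups that lay between horses was 38% for NFE2L1, 37.3% for GCLM and 36.3% for MAFG, and 18.4% to 25.7% for the other 6 genes, where horses take 11.9% of the degrees of freedom. RimRun, chosen after its values were seen, had the highest NFE2L1 in all 8 cultured groups. At 48 h in ISF RimRun was at 103 GeTMM and the next horse at 66, and at 6 d in SF at 136 and 93. Before culture RimRun was at 28.3, between Catnip at 29.6 and the other horses. GCLM was above the group mean in all 9 libraries of Catnip, and in none of 9 of RimRun.

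**Figure D4:**
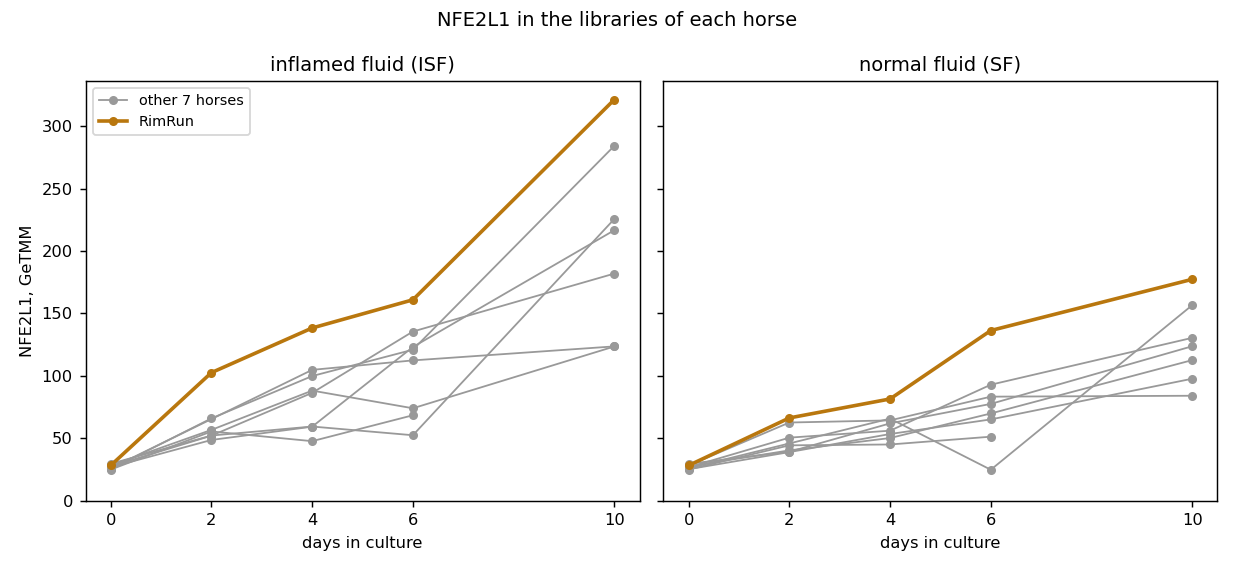
NFE2L1 in GeTMM against days in culture for each horse, in ISF (left) and SF (right), with RimRun in colour and the other 7 horses in grey. RimRun lies above all other horses at every cultured time, from 103 at 48 h to 321 at 10 d in ISF, and within their range at 0 h.

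Other genes of the pathway were taken from 7 lists with 64 genes tested. Together, 0 were called higher and 1 lower in ISF at 48 h, 4 and 5 at 96 h, 10 and 11 at 6 d, and 11 and 12 at 10 d. Over all genes, 1.68% were called at 48 h and 10.5% at 96 h. For the 64 genes, further values follow for 6 d and 10 d. The median difference of the 64 genes was -0.10 at 6 d, with 23 of 64 above 0, and 0.14 at 10 d, with 38 of 64 above 0. At 6 d the medians of 6 of the 7 lists lay between -0.29 and -0.04, and that of the ATF4 list was 0.16. Calls in either direction fell on 21 of the 64 genes at 6 d, beside a background of 30.2%, and on 23 at 10 d, beside 20.8%. With only the groups compared there were 12 calls at 6 d, beside 13.7%, and without libraries with stromal markers 12 at 10 d, 7 higher and 5 lower, beside 10.1%. Without the SF 6 d library of Moon there were 27 at 6 d, 15 higher and 12 lower, beside 36.2%. At 10 d that fit gave 27 as well, 15 higher and 12 lower, beside 28.3%. With library weights there were 26 at 6 d, 14 higher and 12 lower, beside 37.4%, and 28 at 10 d, 16 higher and 12 lower, beside 26%.

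**Figure D5:**
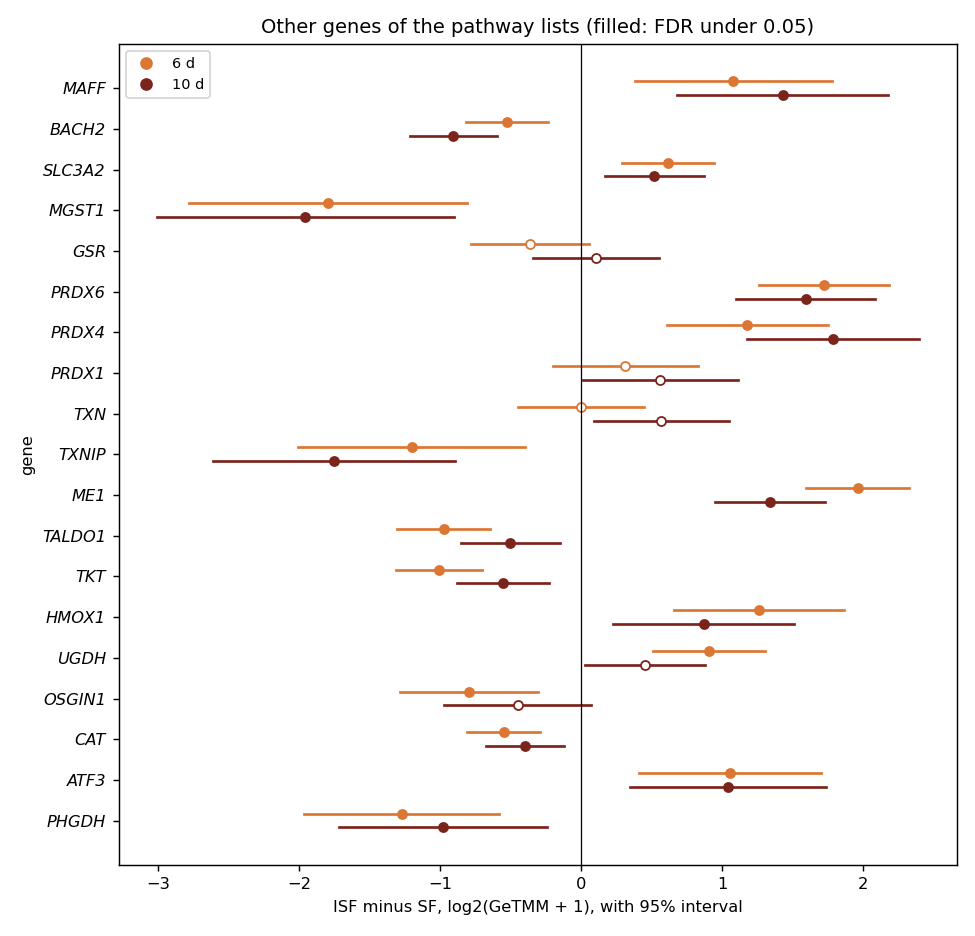
Difference of ISF from SF on the log2(GeTMM + 1) scale at 6 d and 10 d with 95% confidence intervals for the named genes of the other lists (filled: FDR under 0.05). PRDX6, PRDX4, ME1, HMOX1, MAFF and SLC3A2 lie to the right of 0 at both times, and MGST1, TXNIP, TKT, TALDO1, CAT and BACH2 to the left.

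Among 11 partners and other regulators, 1 was called higher and 1 lower at 6 d. Beside this and the lists that follow, 30.2% of all genes were called at 6 d, and 16.7% were called higher in ISF. MAFF, another small MAF protein, was higher in ISF by 1.08 ± 0.35 (FDR = 0.0145), at 4.20 ± 1.89 GeTMM against 1.54 ± 1.42 in SF (SD, n = 8 each). BACH2, a relative of the NRF2 competitor BACH1, was lower by 0.53 ± 0.14 with levels of 0.435 ± 0.296 and 1.10 ± 0.55. BACH2 was low throughout, with group means from 0.162 to 1.53 GeTMM, near the filter limit of 0.5. BACH1 itself differed by -0.35 ± 0.30 (FDR = 0.411).

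Among 11 other glutathione genes, 1 was called higher and 1 lower at 6 d. SLC3A2, the heavy chain that carries SLC7A11 to the membrane, was higher in ISF by 0.61 ± 0.16 (FDR = 0.00291), at 572 ± 134 GeTMM against 383 ± 147. MGST1, a microsomal glutathione transferase, was lower by 1.80 ± 0.49 (FDR = 0.00369), and fell from 758 ± 358 at 0 h to 5.32 ± 3.96 in ISF at 10 d, as the neutrophil precursor markers fell. GSR, which regenerates reduced glutathione, differed by -0.36 ± 0.21 (FDR = 0.191) at 6 d and by -0.71 ± 0.21 at 96 h (FDR = 0.0199).

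Among 12 thioredoxin and peroxiredoxin genes, 3 were called higher and 2 lower at 6 d. PRDX6, a peroxiredoxin that also acts on phospholipids, was at 322 ± 148 GeTMM in ISF and 95.2 ± 43.9 in SF, a difference of 1.72 ± 0.23 (FDR = 3.46e-08). PRDX4, the peroxiredoxin of the secretory pathway, was higher by 1.18 ± 0.29 (FDR = 0.00109). Both were lower in ISF in Moon, the horse of the SF 6 d library that stood apart. TXNIP, which inhibits thioredoxin, was lower by 1.21 ± 0.40 (FDR = 0.0172) and in 8 of 8 horses. TXN and PRDX1 were not called at 6 d, at -0.005 and 0.31. In SF at 6 d TXN had a median of 463 GeTMM and a highest value of 2047, and PRDX1 of 1271 and 6020. The ISF medians at 6 d were 567 for TXN and 1769 for PRDX1. PRDX1 rose from 116 ± 16.1 GeTMM at 0 h to 1456 ± 540 in ISF and 941 ± 212 in SF at 10 d.

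The 6 NADPH-producing enzymes split, with 2 called higher and 2 lower at 6 d. ME1, malic enzyme, was at 119 ± 29.8 GeTMM in ISF and 30.6 ± 12.6 in SF without overlap, a difference of 1.96 ± 0.18 (FDR = 1.37e-12). TKT and TALDO1, of the non-oxidative branch of the pentose phosphate pathway, were lower, TKT at 231 ± 52.8 GeTMM in ISF and 493 ± 246 in SF (FDR = 5.22e-07), and TALDO1 by 0.98 ± 0.16 (FDR = 4.31e-06). In SF at 6 d TKT had a median of 436 GeTMM and a highest value of 1068, and TALDO1 of 497 and 1837. The ISF medians at 6 d were 221 for TKT and 289 for TALDO1.

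Of 11 other NRF2 target genes, 2 were called higher and 3 lower at 6 d. HMOX1, heme oxygenase 1, was at 1607 ± 1201 GeTMM in ISF and 568 ± 163 in SF, a difference of 1.26 ± 0.30 (FDR = 0.000889), higher in 6 of 8 horses with Moon and Ollie opposite. UGDH, which makes the sugar used in glucuronidation, was higher by 0.91 ± 0.20 (FDR = 0.000302), and OSGIN1 was lower by 0.80 ± 0.24 (FDR = 0.00927). In SF at 6 d OSGIN1 had a median of 32.8 GeTMM and a highest value of 129, beside an ISF median of 22.6. Of 3 superoxide dismutases and catalase tested, CAT was lower by 0.55 ± 0.13 (FDR = 0.000731). Among 10 genes of the ATF4 amino acid response, which also controls SLC7A11, 1 was called higher and 1 lower at 6 d, namely ATF3 at 1.06 ± 0.32 (FDR = 0.00952) and PHGDH at -1.28 ± 0.35 (FDR = 0.00334). At 10 d 4 of these 10 were called higher and 1 lower, with a median difference of 0.91. Over all genes, 20.8% were called at 10 d and 9.95% were called higher in ISF.

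Over the 9 group means, the members formed no single pattern. NFE2L1 and GCLC had a Pearson correlation of 0.92 on the log2 scale, GCLC and SRXN1 of 0.88, NFE2L1 and SRXN1 of 0.87, and KEAP1 and MAFG of 0.88. NFE2L2 and the 5 target genes had correlations from -0.39 to 0.47. These are descriptions over 9 points that share horses and libraries. Within groups the 68 libraries gave 0.55 for NFE2L1 and GCLC, or 0.40 without the SF 6 d library of Moon. For GCLC and SRXN1 they gave 0.05, or 0.49 without that library.

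By the same measure over 8625 genes with a symbol, the genes most like SRXN1 were NIP7 (0.998), CACTIN (0.996) and GNPNAT1 (0.992). Those most like NFE2L1 were MTUS1 (0.994), PLCXD1 and STARD13 (both 0.992), and those most like GCLM were CXCL1 (0.986), SH3GL1 (0.976) and ACTR3 (0.958). For NFE2L2 the closest was VPS11 at 0.954, the lowest of the 9 best matches.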

How the data were processed

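RNA-seq of 68 libraries from 8 horses was analysed. Per the study's methods and the submitters' processing notes, reads were trimmed, mapped to EquCab3.0 with STAR 2.7.2a and counted per gene (Ensembl). The authors deposited GeTMM values, which resemble RPKM but are scaled between libraries with TMM factors, with no logarithm taken. From these deposited RPKM-like values, log2(GeTMM + 1) was computed and 14570 genes were kept that reached 0.5 GeTMM in 7 or more libraries. The files give no coordinates.

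One model with 9 groups was fitted to all libraries in limma 3.58.1 under R 4.3.3, with a mean-variance trend, and its two-sided p-values were adjusted by Benjamini-Hochberg over all genes tested. The step was tested on simulated data. Reads were recovered from the steps between GeTMM values, whole within 0.02 reads for 99.9958% of genes, and used for depth and for limma voom. Intervals are 95%.

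ISF and SF libraries of a horse are paired by the animal. Deviations from group means had a median correlation of 0.392 over 30 pairs, 26 of them over 0.1, and horse was fitted as a block as an alternative. Horse identity was checked by correlating libraries over the genes that differed most between horses, as deviations from group means. The 68 libraries came from 8 animals, so each horse gave several libraries, and the main fit held no term for horse. Nothing else marks a batch.

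Members and lists were chosen with earlier results of these data known. Named by rule were all members, up to 3 genes per further list with the largest difference between the fluids at 6 d among those called, HMOX1, TXN, PRDX1 and GSR, and the 3 genes most correlated with each member over group means. BACH1, MSR1 and GPNMB were named, and the ratio of GCLC to GCLM formed, after values were seen. Genes are handled by Ensembl identifier. Sequences are not shown. A gene that the rule also names is not reported here.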

Additional observations from a re-analysis of the deposited data

Results flagged for a closer look

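Within groups, 81 sets of 7 or 8 libraries were examined for a single library far from the rest, by the gap to its neighbour as a share of the range, and 8 were found. Chance gives about 1 in 20 such sets. The SF 6 d library of Moon accounts for 5 of the 8. It had the lowest NFE2L2 (80.8 GeTMM, the others 153 to 266), NQO1 (18.8, the others 32.1 to 50) and GCLC (2.97, the others 27.4 to 53.9) of its group, and the highest KEAP1 (88.3, the others 38.8 to 50.7) and SRXN1 (133, the others 26 to 52.8). The GeTMM values of this library add to 2321940, the largest sum of the 68.

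The ISF 10 d library of Catnip, which lay closest to another horse, had the highest KEAP1 (49.9 GeTMM, the others 41.3 to 42.5). The ISF 6 d library of Catnip had the lowest GCLC (24.8, the others 43.5 to 67.8), and the ISF 48 h library of RimRun the highest NFE2L1 (103, the others 48.7 to 66).

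The difference between ISF and SF changed with time, by the interaction term in limma, for GCLM from 48 h to 6 d (1.43, FDR = 0.0201) and for MAFG from 48 h to 6 d (0.72, FDR = 0.00464) and from 48 h to 10 d (0.58, FDR = 0.0451).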

How the results depend on the processing

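No difference of a member changed direction past the threshold under any alternative. The number of members called between the fluids moved at 48 h from 0 to 2 with library weights and to 1 without the SF 6 d library of Moon, and at 10 d from 6 to 2 without libraries with stromal markers. At 96 h it moved from 4 to 6 with library weights and to 3 without the filter, at 6 d from 5 to 6 with the replicate block and to 4 with only the groups compared, at 10 d to 5 without the filter or with only the groups compared, and in SF from 48 h to 96 h from 4 to 3 without the filter or without libraries with stromal markers, as GCLM was lost, and to 5 with library weights. In ISF from 48 h to 96 h it moved from 1 to 2 with horse as a replicate block, 4 with only the groups compared, 5 with library weights and 3 without the SF 6 d library of Moon, and from 96 h to 6 d from 0 to 1 with library weights, without that library, and without the ISF 96 h libraries of Dealings and Dreamer. From 6 d to 10 d it moved from 2 to 1 in ISF with only the groups compared, and from 1 to 0 in SF with only the groups compared, without the SF 6 d library of Moon and without libraries with stromal markers. For the change from 48 h to 10 d it moved from 1 to 0 without the filter, with voom, without libraries with stromal markers and without the ISF 10 d library of Catnip (chosen after seeing the data), and to 2 with the replicate block and with library weights. The block changed no call but those given in the report. With each horse left out in turn, the number called ranged from 0 to 1 between the fluids at 48 h, 3 to 4 at 96 h, 4 to 6 at 6 d and 3 to 6 at 10 d, from 0 to 4 in ISF and 2 to 5 in SF from 48 h to 96 h, from 1 to 2 in ISF and 0 to 1 in SF from 6 d to 10 d, and from 1 to 3 and 0 to 3 for the changes from 48 h to 6 d and to 10 d. SRXN1, GCLM and MAFG at 96 h and 6 d, and SRXN1 and SLC7A11 at 10 d, were called in 19 of 19 settings, as was SLC7A11 at 6 d. Of 2907 values of single members under an alternative, 79 lost and 50 gained a call.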
